A study of Mus musculus with 6 samples.

Results

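On the arrays of this study, 3484 of 150305 probes other than controls are named not by a transcript but by a genomic interval with a strand that spans under 1000 bases. The rule that makes a probe a member uses its name and no measured value, and a member was tested where its spot was well above background, by the scanner software's flag, on at least 3 of the 6 arrays. That left 3085 tested members and 399 that were not tested. The arrays measured RNA of abdominal adipose tissue of C57BL/6 mice, with 3 arrays per group. Both groups, per the labels' protocols, were put on a high-fat diet at 6 weeks of age and were operated on after 12 weeks of it, so the diet is common to all samples. The DJB group had a duodenal-jejunal bypass, which joins the gut anew so that food misses its upper stretch, with a biliopancreatic limb of 5 cm and a Roux limb of 4 cm and with buprenorphine at 0.15 mg/kg. In the Sham group the gut was cut through the same incision and sewn back where it was. The labels name no fat depot, no time between surgery and sampling, and no link between an array and an animal, so p-values here rest on a spread between samples that may be technical alone.

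A name of this form, a start, an end and a strand, is the one in common use for circular RNAs. In back-splicing the end of an exon is joined to the start of the same or an earlier exon, which closes the stretch between them into a ring without free ends. Such rings lack the cap and the poly(A) tail, are spared by enzymes that chew RNA from its ends, and in many tissues are made alongside the linear mRNA of the host gene at a low level. A probe laid across the back-splice junction reads a sequence order that the linear mRNA lacks. The files give no transcript class, so no member is called a circular RNA here, and what follows treats them as probes named by short intervals.

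The letters of the probes show how they were laid. All probes are 60 bases long, and 26 members are intervals of fewer bases than that. Each of the 26 repeated its own first bases at the end of the probe, at a distance equal to the length of the interval, while 21 of the 37826 other interval-named probes held a repeat at the distances these members have, 51 to 54 bases. A probe that runs round the interval, past its end and into its start, would hold such a repeat. The repeat does not show at which base of the interval the probe begins. The shortest 2 that had a host gene and a member in a collagen gene are shown, with the repeated bases in capitals. H1f2 encodes a linker histone, Mob3a a protein of a family of kinase activators, and Col1a1 a chain of type I collagen.
Mob3a, chr10:80685266-80685316, minus strand: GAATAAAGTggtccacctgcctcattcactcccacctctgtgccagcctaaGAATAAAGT
H1f2, chr13:23739398-23739448, plus strand: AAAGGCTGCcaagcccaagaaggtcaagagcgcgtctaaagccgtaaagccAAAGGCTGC
Col1a1, chr11:94944598-94944651, plus strand: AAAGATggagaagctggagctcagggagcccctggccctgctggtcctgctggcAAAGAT

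Longer intervals show the same order when 2 of them share one edge. Over interval-named probes of every span, 94.8% of 25226 pairs with the same first base held a common run to the right of a point in the probe, and 97.1% of 21006 pairs with the same last base held one to the left. Among pairs of members the shares were lower, 96 of 110 (87.3%) with the same first base and 106 of 157 (67.5%) with the same last base. The 4 members of Gnptg, which encodes a subunit of the enzyme that marks lysosomal enzymes for transport, have the same first base and different last bases. The run they share is in capitals. What stands before it would come from the end of each interval if the probe runs round it, but its place in the genome was not checked.
Gnptg, chr17:25234808-25235627, minus strand: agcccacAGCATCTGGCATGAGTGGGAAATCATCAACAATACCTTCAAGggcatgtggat
Gnptg, chr17:25234980-25235627, minus strand: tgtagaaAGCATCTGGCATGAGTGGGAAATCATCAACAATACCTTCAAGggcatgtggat
Gnptg, chr17:25235182-25235627, minus strand: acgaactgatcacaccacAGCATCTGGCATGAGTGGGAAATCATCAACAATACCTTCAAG
Gnptg, chr17:25235345-25235627, minus strand: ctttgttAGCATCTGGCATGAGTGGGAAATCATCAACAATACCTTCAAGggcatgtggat
The point of joining could be placed this way for 1266 members, and its shorter side had a median length of 10 bases. The placement is rough: of 291 members placed from both sides, 82.8% agreed within 2 bases. The smallest shorter side was 0, which leaves no point of joining inside the probe. In 54.4% of the 1266 the shorter side was under 12 bases, so that by this placement most of such a probe matches one continuous stretch.

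Spans ran from 50 to 999 bases, where the span is the end minus the start, with a median of 429.5 and quartiles of 220.0 and 683.0. There were 1744 members on the plus and 1740 on the minus strand. The build of the intervals is not stated, and the file header reads mm9. Against the RefSeq gene table of GRCm38.p6, 97.8% of members lay in a gene, against 58.8% and 57.3% after a shift of 500000 bases up or down, and of 30 members that share 25 bases with a RefSeq promoter window 29 lay where GRCm38 puts that sequence. Coordinates are therefore given as GRCm38. By that RefSeq annotation, 2811 members (80.7%) lay in a gene on its own strand and 535 (15.4%) in a gene on the opposite strand only, while among all interval-named probes the latter share was 2.15%. A host gene, a single gene that holds the whole interval on its strand, was found for 2795 members, with 2062 hosts in all. Of these hosts 1604 had 1 member and 458 had at least 2. The table gives no exons, so whether an interval is exonic was not analysed here.

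Across the series the 75th percentile of the processed signal was 183.3, 175.8 and 183.7 on Sham and 165.3, 145.6 and 132.0 on DJB arrays. It was lower on every DJB array than on every Sham array, and signals are scaled by it, which raises DJB values against Sham. The part of this scaling in the differences that follow was not tested, and results with other scalings are given at the end. On the 6 arrays 62.6% to 68.8% of all probes were well above background, and no spot was saturated. The number of arrays limits the precision. Member signals correlated between arrays at Pearson's r of 0.963 to 0.991, a description over probes of 1 design. Of 8 adipocyte marker mRNAs all were tested, and their mean scaled log2 signal was 8.26 to 8.48 in Sham against 6.95 to 7.88 in DJB. Of the 8, Retn and Lep, which encode the adipokines resistin and leptin, were called lower, while Cd36 (0.42) and Fabp4 (0.08) were positive and not called. Macrophage markers had a mean of 6.63 to 7.08 in Sham against 7.47 to 7.68 in DJB, with Itgam and Gpnmb called higher among 6. The means of 4 smooth muscle markers were 5.37 to 6.40 in Sham against 3.75 to 3.89 in DJB, with 3 called lower. Of 6 skeletal muscle markers 3 were called lower, while Ckm (0.28), Tnnt3 (0.31) and Mylpf (0.07) were positive and not called. Of 4 liver markers 2 were called lower, while Apoa1 (1.62) and Ttr (0.44) were positive and not called. Of 4 mesothelial and 3 endothelial markers 1 each was called lower. Among the B cell, T cell, acinar, epididymal and red blood cell markers tested none was called. In bulk tissue, fewer cells of a type and less RNA per cell cannot be told apart, and the part of these markers in the results that follow was not tested.

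Most short-interval members were detected in both groups. Of the 3484 members 2915 (83.7%) were well above background on all 6 arrays and 276 (7.92%) on none. The share well above background was 89.4%, 87.2% and 89.1% for Sham arrays and 87.8%, 86.9% and 86.7% for DJB arrays. The groups overlapped, with 88.6% ± 1.19 in Sham and 87.1% ± 0.613 in DJB (SD, n = 3 each). The difference of -1.45 percentage points had a two-sided exact permutation p of 0.20, where 3 against 3 arrays cannot give less than 0.10.

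The comparison of DJB with Sham asks which of these short intervals changed in fat after the bypass. Called members rose more often than they fell. 99 tested members were higher in DJB, which is 3.21% of those tested beside 1.84% of all 99431 tested probes. 39 were lower, which is 1.26% beside 3.15% of all tested probes. The test was limma's, and p-values were adjusted after Benjamini and Hochberg over the 99431 probes, with a call at an adjusted p under 0.05. Values below are log2 signals less the 75th percentile of their array, and differences are those of DJB less Sham. The called rises lay between 0.48 and 1.86 with a median of 0.84, and the falls between -0.63 and -2.78 with a median of -1.23. The sizes depend on the background correction: with normexp, 41 of the 99 rises and 24 of the 33 falls that kept their sign were smaller by over 1.5 times. In all 138 called members the DJB and Sham arrays did not overlap, and the sign was the same within both slides.

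The count of calls rests on few arrays. It was 12 (5 higher and 7 lower) with the slide as a block, and among the members named in what follows 9 were in that count: 4 of Fasn, 1 of Olfm1, and 1 each of Kif1a, Dusp1, Ankrd33b and Ctsl. It was 3 without Sham replicate 1, 6 without Sham replicate 2, 54 without Sham replicate 3, 12 without DJB replicate 1, 3 without DJB replicate 2 and 92 without DJB replicate 3, and 3 members, all of Fasn, were called each time.

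Beyond the calls, the whole set was shifted upward. The median difference of tested members was 0.19, with quartiles of -0.03 and 0.36, beside 0.08 for all tested probes, and 2248 of 3085 members (72.9%) were positive, beside 59.0% of all tested probes. The 3 Sham arrays had member medians of -0.95, -0.92 and -0.89 in scaled signal, and the 3 DJB arrays had -0.77, -0.79 and -0.75. Every DJB array thus had a higher member median than every Sham array. Within slide 1, which held 2 arrays of each group, the median difference was 0.18, and within slide 2, with 1 of each, it was 0.20, beside 0.11 and 0.03 for all tested probes. Longer intervals had medians of 0.17 (1 to 10 kb), 0.14 (10 to 50 kb) and 0.07 (50 kb or more), and RefSeq mRNA probes had 0.03. The shares of positive differences in these longer intervals were 72.5%, 67.8% and 58.6%, so the shift is not particular to spans under 1 kb. In 1073 members the DJB arrays all lay above the Sham arrays and in 235 all below, beside 21.9% and 14.2% of all tested probes. Base composition moves with this difference over the whole array: the median difference of all tested probes was 0.07 between 40% and 45% G and C and 0.22 at 60% or more, and the members had a median G and C content of 50% against 45% for all interval-named probes. Among the members themselves the medians in the same ranges were 0.16 and 0.24. The parts of base composition and of the array scaling in the shift were not tested.

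**Figure D1:**
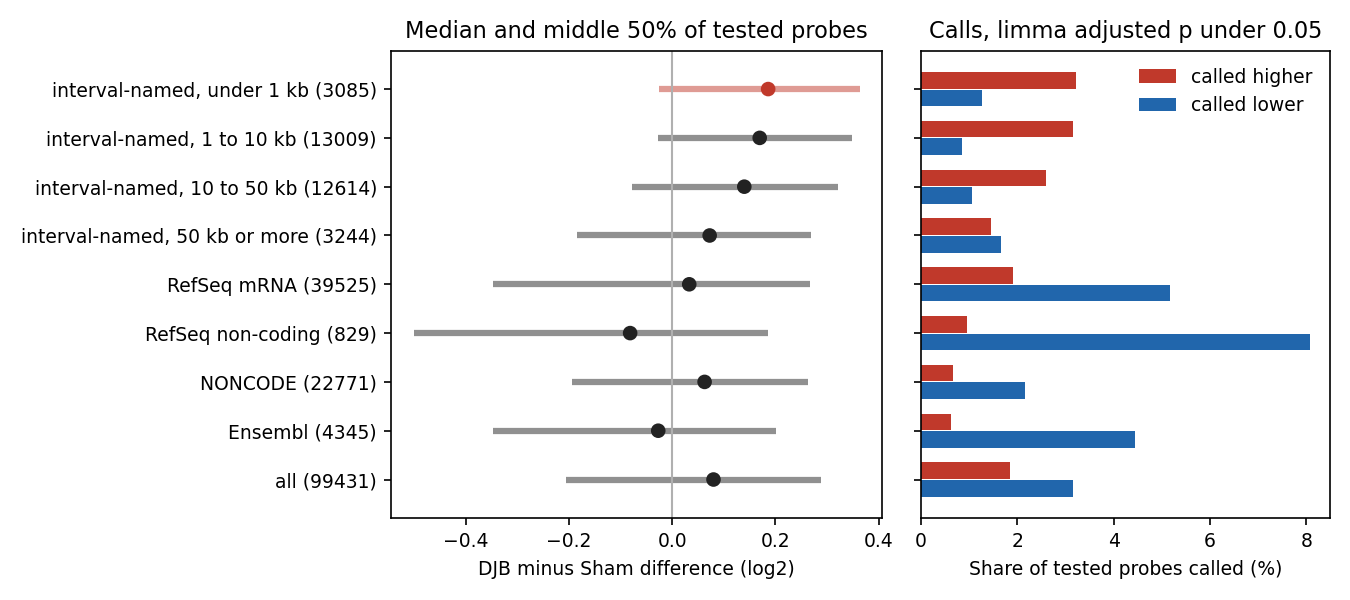
Left, the median (point) and middle 50% (bar) of the DJB minus Sham difference on the log2 scale for each kind of probe name, with the number tested in brackets. Right, the share of tested probes called higher (red) or lower (blue) by limma at an adjusted p under 0.05. The short intervals have a median of 0.19 and more calls higher than lower, whereas RefSeq mRNA probes have 756 called higher and 2046 lower.

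At the limit of the span the values were mixed. The tested members with a span of 999 bases lay in Rc3h1 (0.16), Dzip3 (-0.21) and Hmgxb3 (0.42), and the nearest probes outside, with 1000 bases, lay in Flii (0.43), 6530402F18Rik (-0.32) and Mecr (-0.51). At the limit of detection, 50 members were well above background on 3 arrays and 50 on 2. The shortest tested members had a span of 50 bases. The first 3 of them by interval name lay in H1f2 (0.64, SE 0.13, limma adjusted p = 0.051), in Mob3a (0.53, SE 0.15, adjusted p = 0.088) and opposite Cdc42bpb (0.23, SE 0.15, adjusted p = 0.36). Other tested members of the same span are not given here. None of these 3 passed the test, though the DJB arrays of H1f2, at 3.61, 3.93 and 3.97, all lay above its Sham arrays at 3.17, 3.16 and 3.25.

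The largest falls were those in Igfbp2 and Fasn. Fasn encodes fatty acid synthase, which makes palmitate from acetyl and malonyl units in fat and liver. It holds 6 members, 2 on its strand and 4 on the opposite strand, and 5 of the 6 were called lower. The 5 probes are shown because 3 of them have the lowest adjusted p-values among the members, and no base is marked.
Fasn, chr11:120819803-120820367, minus strand: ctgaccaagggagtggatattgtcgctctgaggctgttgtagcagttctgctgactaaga
Fasn, chr11:120811600-120811957, minus strand: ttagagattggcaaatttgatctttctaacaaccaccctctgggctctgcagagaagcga
Fasn, chr11:120813034-120813105, plus strand: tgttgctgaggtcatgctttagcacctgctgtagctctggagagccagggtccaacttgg
Fasn, chr11:120815895-120816151, plus strand: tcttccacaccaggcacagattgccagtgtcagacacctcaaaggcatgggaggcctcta
Fasn, chr11:120815101-120815729, plus strand: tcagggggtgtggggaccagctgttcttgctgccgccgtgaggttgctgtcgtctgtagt
The first of them, on the strand of the gene, read 1.28, 0.75 and 1.27 in Sham and -1.71, -1.56 and -1.46 in DJB. The groups were far apart, and the member fell by 2.67 (SE 0.18, limma adjusted p = 0.0067), which is 6.38-fold. The second read 1.10, 0.76 and 1.11 against -1.12, -1.02 and -1.29 and fell by 2.13 (SE 0.15, adjusted p = 0.0070).
The members on the opposite strand fell as well. The one of 72 bases read -0.56, -0.88 and -0.65 on Sham and -3.16, -2.88 and -3.26 on DJB arrays, a difference of -2.40 (SE 0.15) with the lowest adjusted p of the members, 0.0064. The one of 257 bases differed by -2.59 (SE 0.24, adjusted p = 0.014) and the one of 629 bases by -0.88 (SE 0.18, adjusted p = 0.049). The remaining one differed by -0.27 and was not called (adjusted p = 0.27). The mRNA probe of Fasn fell by 2.29 (SE 0.15, adjusted p = 0.0066). So 4 of the 6 members changed by about as much as the mRNA, and the other two by less.

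Igfbp2 encodes a secreted protein that binds insulin-like growth factors. Its member is shown for the largest called fall, again with no base marked.
Igfbp2, chr1:72849086-72849704, plus strand: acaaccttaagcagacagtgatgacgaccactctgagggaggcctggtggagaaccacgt
It read -0.18, -0.74 and -2.15 on Sham and -4.08, -3.93 and -3.41 on DJB arrays. The groups did not overlap, but Sham replicate 3 lay well below the other Sham arrays, and the fall of 2.78 had an SE of 0.51 (limma adjusted p = 0.042). The mRNA probe fell by 3.56 (SE 0.55, adjusted p = 0.033).

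Further large falls lay in Itga7, Syp, Ptprk, 9330159F19Rik and opposite Trp53inp2. Itga7, a laminin-binding integrin subunit of muscle, read -0.55, -0.83 and -1.04 on Sham and -3.42, -2.57 and -1.98 on DJB arrays at chr10:128940682-128940937, a fall of 1.85 (SE 0.37, limma adjusted p = 0.047). Syp encodes synaptophysin, a membrane protein of synaptic vesicles. Its member at chrX:7652626-7652744 read -1.76, -1.95 and -2.15 against -3.89, -4.28 and -3.11 and fell by 1.81 (SE 0.30, adjusted p = 0.038). A second member, opposite Syp, fell by 1.31. Opposite Trp53inp2, which encodes a protein of autophagy, the interval chr2:155386051-155386158 read 0.52, 0.03 and 0.45 against -1.70, -1.58 and -1.04 and fell by 1.77 (SE 0.23, adjusted p = 0.025). The members in 9330159F19Rik and in Ptprk, a receptor-type tyrosine phosphatase, fell by 1.71 (adjusted p = 0.040) and 1.48 (adjusted p = 0.046). In each of these members the DJB arrays all lay below the Sham arrays, which was a condition for naming the largest falls. DJB replicate 3 was the highest of their DJB arrays. Of the muscle markers given above, 3 of 4 for smooth and 3 of 6 for skeletal muscle were called lower, and their part in these falls was not tested.

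**Figure D2:**
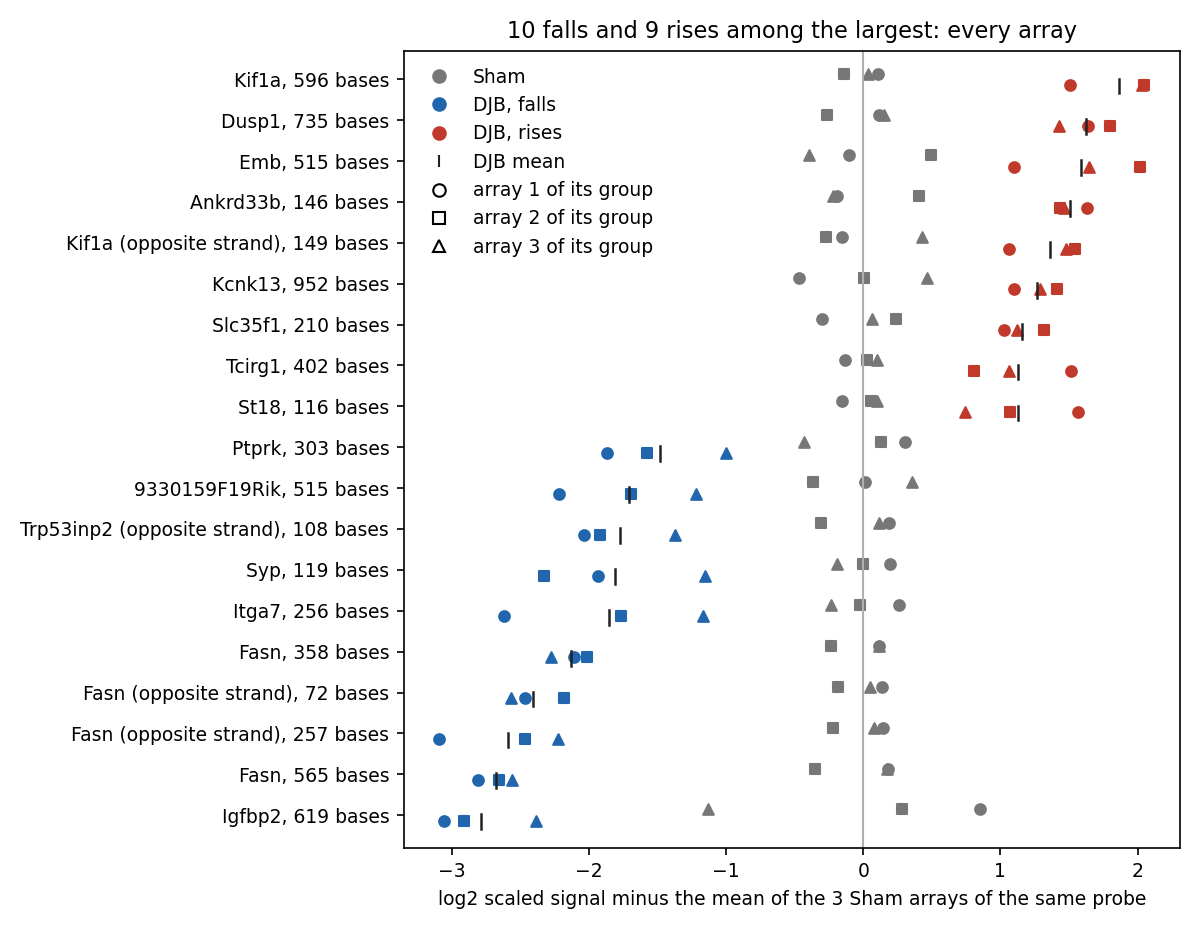
Log2 scaled signal of each array less the mean of the 3 Sham arrays of the same probe, for 9 of the 10 called members with the largest rise (red) and the 10 with the largest fall (blue) that were well above background on at least 2 arrays of each group. Grey marks are Sham arrays, marker shapes give the array's number in its group, and short vertical lines are DJB means. Members were taken only where the DJB arrays did not overlap the Sham arrays, so none overlaps here. The Sham arrays of Igfbp2 spread the most.

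5 more called falls could be given only as bounds, since none of the DJB arrays was well above background. For such a member the Sham mean was set against the mean over the DJB arrays of the higher of its own value and the lowest signal of any probe well above background. These 5 passed the filter through their Sham arrays alone, which favours a difference, and their p-values are no support for a fall. The other 34 called falls had at least 1 DJB array well above background. The interval in Myh7, the slow myosin heavy chain, was at least 1.80-fold lower (limma adjusted p = 0.046), and that in Daam2, a formin of Wnt signalling, at least 1.78-fold (adjusted p = 0.036). Those in Auts2 and Ptpn4, a tyrosine phosphatase, were at least 1.76-fold (adjusted p = 0.042) and 1.40-fold lower (adjusted p = 0.043), and that in Raver2, an RNA-binding protein, at least 1.47-fold (adjusted p = 0.048). With normexp background correction these 5 differences turned to between 0.033 and 0.087. In all, 15 tested members had no DJB array well above background, and 1 had no Sham array.

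The largest rises were those in Kif1a and Dusp1. Kif1a encodes a kinesin that carries vesicle precursors along axons. Its 2 most raised members, 1 on each strand, are shown without marked bases, followed by that of Dusp1, a phosphatase that switches off MAP kinases and is quickly induced by stress.
Kif1a, chr1:93055685-93056280, minus strand: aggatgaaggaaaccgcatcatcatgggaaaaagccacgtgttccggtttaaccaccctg
Kif1a, chr1:93016178-93016326, plus strand: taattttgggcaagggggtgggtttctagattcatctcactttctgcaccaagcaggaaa
Dusp1, chr17:26506985-26507719, minus strand: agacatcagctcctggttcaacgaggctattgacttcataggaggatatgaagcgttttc
The first Kif1a member read -4.76, -5.01 and -4.84 on Sham and -3.36, -2.82 and -2.84 on DJB arrays. It rose by 1.86 (SE 0.18, limma adjusted p = 0.015), the largest called rise, while the Kif1a mRNA probe differed by 1.05 (SE 0.28, adjusted p = 0.080). The member on the opposite strand read -4.69, -4.80 and -4.10 against -3.46, -2.98 and -3.05 and rose by 1.36 (SE 0.23, adjusted p = 0.038). Both are dim, and with normexp background correction they differed by 0.48 and 0.38, still called, so that Dusp1 came first with 1.47.
Dusp1 was brighter and as clear. Its member read 1.47, 1.09 and 1.5 on Sham and 3.0, 3.16 and 2.78 on DJB arrays, a rise of 1.62 (SE 0.17, adjusted p = 0.017) beside 1.35 (SE 0.24, adjusted p = 0.040) for its mRNA probe.

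Other large rises lay in Emb, Kcnk13, Ankrd33b and St18. Emb, a partner of monocarboxylate transporters, read -1.89, -1.29 and -2.18 on Sham and -0.69, 0.23 and -0.14 on DJB arrays and rose by 1.59 (SE 0.31, limma adjusted p = 0.047). Kcnk13, a potassium channel, rose by 1.27 (SE 0.25, adjusted p = 0.046), with DJB arrays at 1.47, 1.79 and 1.66 and Sham arrays at -0.10, 0.38 and 0.84. The intervals lie at chr13:117249272-117249786 and chr12:100061002-100061953. Ankrd33b, which encodes an ankyrin repeat protein, read -0.87, -0.27 and -0.90 against 0.95, 0.75 and 0.78 and rose by 1.51 (SE 0.20, adjusted p = 0.026). St18, a zinc finger transcription factor, rose by 1.13 (adjusted p = 0.047) from -4.70, -4.49 and -4.45 to -2.98, -3.47 and -3.81. In all of these the groups stood apart, which was a condition for naming the largest rises. The mRNA probe of each of these 4 genes differed in the same direction, by 0.90 to 1.43.

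Members of Ctsl, Tcirg1 and Psap, which act in lysosomes, rose. Ctsl encodes the lysosomal protease cathepsin L. Its member at chr13:64367860-64368238 read 3.80, 3.92 and 3.69 on Sham and 5.01, 4.83 and 4.92 on DJB arrays and rose by 1.11 (SE 0.12, limma adjusted p = 0.018), beside 0.53 (SE 0.11, adjusted p = 0.049) for the mRNA. Tcirg1, a subunit of the proton pump that acidifies lysosomes, rose by 1.13 (SE 0.20, adjusted p = 0.040) from 1.99, 2.15 and 2.22 to 3.64, 2.93 and 3.18. Psap encodes prosaposin, the precursor of the proteins that help lysosomes break down sphingolipids, and all 3 of its members rose, by 0.88 to 0.91. The one at chr10:60301912-60302076 read 6.44, 6.64 and 6.67 against 7.46, 7.46 and 7.52, with an adjusted p of 0.025. Its mRNA probe differed by 0.44 (SE 0.12, adjusted p = 0.078). The macrophage marker means given above were higher on every DJB array than on every Sham array, and their part in these rises was not tested. These genes were grouped after their values were seen.

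Counting members on either strand, 14 genes had at least 2 called members, and those named here were taken for that count. In each but Ttn the called members moved one way. All 3 members of Pkm, the muscle-type pyruvate kinase of glycolysis, rose, by 0.70 to 0.99, beside 0.87 for the mRNA. All 3 of Samd8, a ceramide phosphoethanolamine synthase, rose, by 0.59 to 0.80. They begin at the same base, and the shared run is in capitals.
Samd8, chr14:21774963-21775440, plus strand: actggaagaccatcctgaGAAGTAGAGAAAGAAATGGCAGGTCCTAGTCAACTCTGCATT
Samd8, chr14:21774963-21775445, plus strand: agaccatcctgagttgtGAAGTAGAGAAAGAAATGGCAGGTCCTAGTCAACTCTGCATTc
Samd8, chr14:21774963-21775555, plus strand: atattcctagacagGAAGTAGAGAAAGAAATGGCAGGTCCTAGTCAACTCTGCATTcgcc
The Samd8 member of 593 bases read -1.33, -0.96 and -1.21 on Sham and -0.41, -0.38 and -0.32 on DJB arrays, so the groups stood apart. Both members of Niban2 rose (0.88 and 0.92), as did both of Top2a, the topoisomerase of dividing cells (0.70 and 0.78), and both of Vim, the intermediate filament vimentin, 1 on each strand (0.84 and 0.71). Of 3 members of Zmiz1, a transcriptional coactivator, 2 rose. Both members of Kcnip3, a calcium sensor that binds potassium channels, fell, by 1.46 and 1.09, and the mRNA probe fell by 1.76.

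Of the 8 host genes with the most members, Malat1, a long non-coding RNA of the nucleus, came first with 21. Its 20 tested members differed by 0.11 to 0.48, all positive, and none was called, with 3 at an unadjusted p under 0.05. Over all 99431 tested probes, 15517 were higher and 12540 lower by limma at an unadjusted p under 0.05. The DJB arrays all lay above the Sham arrays in 5 of the 20 Malat1 members, beside 21.9% of all tested probes. With quantile normalization 16 of the 20 were positive, 15 with the authors' deposited table, and 18 without DJB replicate 2. The 8 members on its opposite strand differed by 0.05 to 0.35.
Dync1h1, the heavy chain of the motor dynein, had 11 tested members, of which 2 rose. 10 of the 11 were higher on every DJB array, beside 21.9% of all tested probes. The median of the Dync1h1 members was 0.46, beside 0.43 for the mRNA. Kif1a had 11 as well, and they spread from -0.67 to 1.86 with 2 called higher. Map1b, a microtubule protein of neurons, had 10, with differences from -1.04 to 0.07. 1 was called lower, and 8 were lower on every DJB array, beside 14.2% of all tested probes. The Map1b mRNA probe differed by -0.87.
Ttn, the giant sarcomere protein titin, had 16 members, of which 7 passed the filter, and 1 was called higher (0.63) and 1 lower (-0.72, or 0.038 with normexp background correction). Cpsf1, a factor of mRNA 3′ end cleavage, had 7, with 1 called higher (0.71). Flna, an actin crosslinker, had 7 with none called and all 7 at an unadjusted p under 0.05 (0.42 to 0.57). All 7 were higher on every DJB array, beside 21.9% of all tested probes.

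Matrix members of 3 genes differed upward without reaching the threshold, and the others were mixed. The 9 members of Col3a1, a chain of type III collagen, differed by 0.68 to 1.0 with SEs of 0.16 to 0.34, and none was called (lowest limma adjusted p = 0.060, all 9 at an unadjusted p under 0.05). Their median signal was 1.93, 2.80 and 2.44 in Sham and 4.01, 2.98 and 3.20 in DJB. Both groups were spread by about as much as they differed, and DJB replicate 1 was the highest. The 4 members of Col1a1 differed by 0.83 to 0.95 and the 3 of Fn1, the matrix protein fibronectin, by 0.79 to 0.93. The single members of the other genes lay at 0.73 (Col2a1), 0.29 (Thbs1), 0.06 (Col6a1), -0.32 (Nid1) and -0.57 (Eln, with its mRNA called lower at -1.06), and those of Hspg2 at -0.25 and 0.14. Over a list of matrix genes 23 members were tested, with a median of 0.83, beside 0.08 for all tested probes. None was called by limma, though 18 had an unadjusted p under 0.05. Of all 99431 tested probes 15517 were higher and 12540 lower at that unadjusted p. Of the 55 mRNAs of the list, 4 fell and none rose (median -0.01), beside 6.02% and 1.45% of 17825 genes. The 23 members lie in only 9 of these genes. Their mRNA probes differed by 0.51 (Col3a1), 0.64 (Col1a1), 0.50 (Fn1), 0.91 (Col2a1), 0.22 (Thbs1) and 0.07 (Col6a1). Those of Nid1, Hspg2 and Eln differed by -0.40, -0.24 and -1.06, and of the 9 only that of Eln was called.

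**Figure D3:**
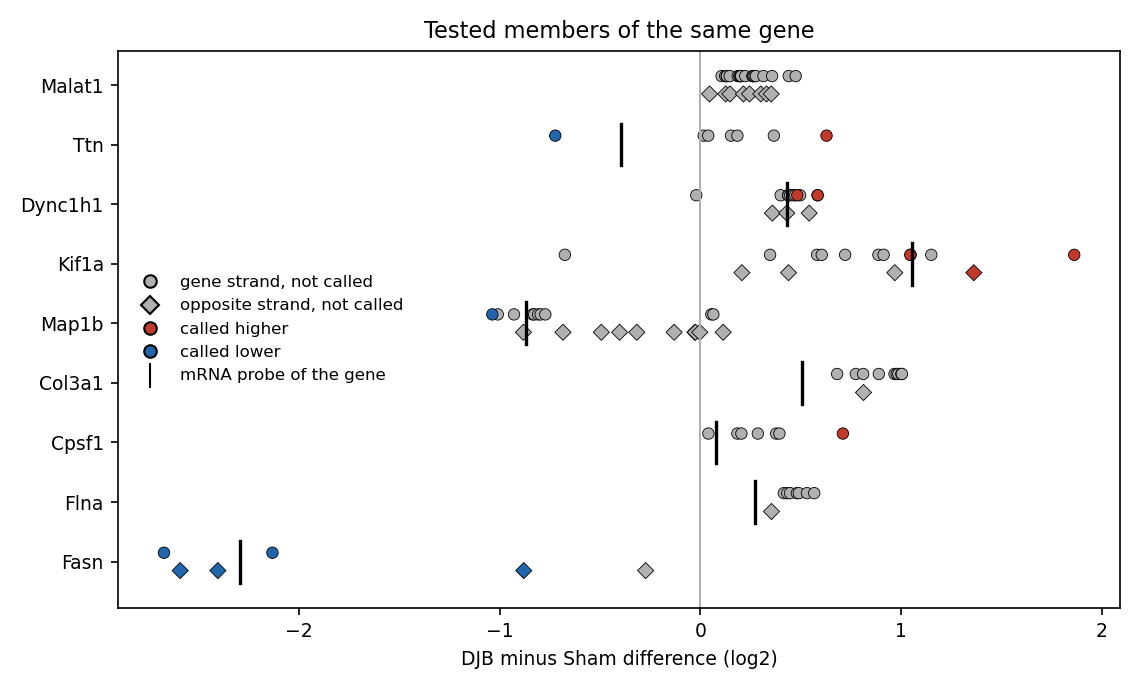
DJB minus Sham difference (log2) of every tested member of the 8 host genes with the most members and of Fasn. Circles lie on the strand of the gene and diamonds on the opposite strand, red and blue mark calls by limma, and the black bar is the gene's mRNA probe. Col3a1 members lie between 0.68 and 1.0, to the right of their mRNA at 0.51, and Kif1a members spread from -0.67 to 1.86.

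Members of one gene lay close together. In 394 hosts with at least 2 tested members the range of differences within a host had a median of 0.17. The SD within a host had a median of 0.11, where the SD over all tested members was 0.45. In 298 hosts (75.6%) all members had the same sign. Of all tested members 72.9% were positive, and the share of hosts that would agree if members were unrelated was not computed. The range passed 1 in 21 hosts. It was 2.54 in Kif1a, 2.48 in Tnnt2, which encodes cardiac troponin T, and 1.55 in Igfbp2. Members that share an edge were closer still, with a median range of 0.11 over 156 groups of at least 2 tested members. No such group held a called rise and a called fall. These members share bases as well as a gene, and 20 members have a sequence that another probe repeats, so they are not independent.
The largest groups with a common edge lay outside the genes of the table, in chr17:39844415-39848682. There 10 members on the plus strand end at 1 base and 5 at another, and 4 begin at 1 base. This stretch holds 39 members, 34 of them outside any gene of the table, with a median G and C content of 68.3%. All 39 differed upward, by 0.21 to 0.56 (38 of 39 with quantile normalization or the authors' deposited table), and 1 was called. Their median signal was 5.91, 5.85 and 5.75 on Sham and 6.22, 6.00 and 6.36 on DJB arrays. In 35 of the 39 every DJB array lay above every Sham array, beside 21.9% of all tested probes. The 4 Gnptg members printed above differed by 0.19 to 0.33 and none was called.

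Members on the strand opposite to a gene were compared with the mRNA of that gene. 410 such members had a tested mRNA probe, and their differences correlated with those of the mRNA at Pearson's r of 0.48, or 0.43 without Fasn, a description over probes on the same 6 arrays. Of these 5 were called higher and 5 lower, 1.22% each way beside 1.84% and 3.15% of all tested probes. In each of the 10 the mRNA differed in the same direction. The falls were the 3 of Fasn and those of Syp and Trp53inp2. The rises were in Kif1a, Vim and Zmiz1 and opposite Map2k3, a kinase of the p38 cascade (0.60, mRNA 0.60), and opposite Dnajc10, a protein disulfide reductase (0.84, mRNA 0.40). Overlapping members on both strands formed 120 pairs, of which 107 had the same sign. Many members stand in several pairs, as in Kif1a and Malat1, so the pairs are not independent. Of all tested members 72.9% were positive, and the share of unrelated pairs that would agree in sign was not computed. In Igfbp2 the signs were the same and the sizes were not: the member on the opposite strand differed by -0.06 and its 3 partners by -2.78, -1.51 and -1.24, of which the first was called. Of the opposite-strand members 28 hold the reverse complement of 20 bases of an mRNA probe.

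The second comparison asks whether a member moved differently from the mRNA of its own host. 2418 members had a tested host probe, in 1818 hosts, and differences of member and host correlated at Pearson's r of 0.65. The median was 0.18 for the members and 0.07 for their hosts. Of 89 members called higher with a host probe, 84 had a host that was positive and 20 a host called higher. Of 32 called lower all had a negative host, and 21 a host called lower. Hosts picked for a call have large differences by that choice, so the medians that follow are a description: where the host was called lower, in 128 members, the median was -1.09 for the host and -0.46 for the member. Where it was called higher, in 34 members, the medians were 0.79 and 0.76.

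**Figure D4:**
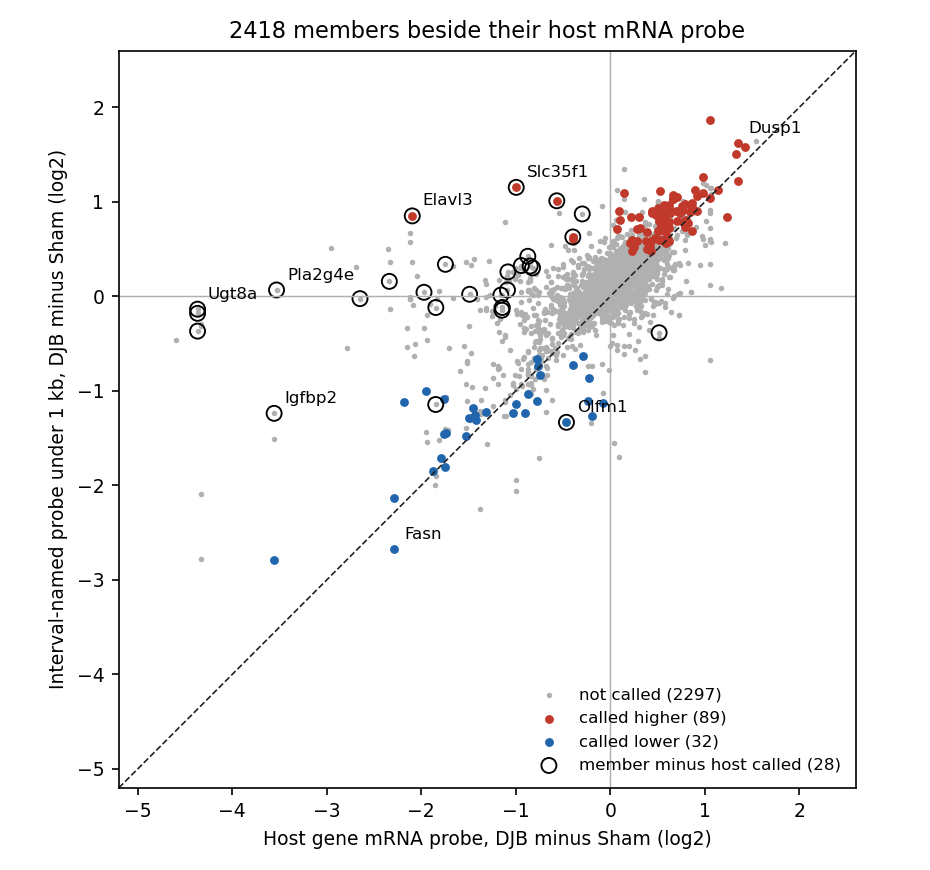
DJB minus Sham difference (log2) of each of 2418 members against that of its host gene's mRNA probe, with the line of equal change dashed. Red and blue mark members called higher or lower, and rings mark the 28 whose change differed from the host's. The ringed points lie mostly to the left, where the host is lower and the member is near 0.

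The difference itself was tested by limma on the member's signal less the host's on each array, adjusted over 29834 interval-named probes of any span. 26 members moved above their host, beside 0.851% of all those probes, and 2 below it, beside 0.0603%, which is 1.16% of members in all. In 27 of the 28 the host difference was negative and in 21 the host was called lower, while 20 members lay within 0.5 of no difference. 4 of the 28 were themselves called higher and 1 lower. For 6 of the 28 no DJB array had the host probe well above background, so the size of the gap is not measured there.
The 3 members of Ugt8a, the enzyme that makes galactosylceramide of myelin, are such a case. Shown with their shared run in capitals, they differ in the bases before it.
Ugt8a, chr3:125914616-125915461, minus strand: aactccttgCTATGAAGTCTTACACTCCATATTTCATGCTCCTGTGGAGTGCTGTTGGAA
Ugt8a, chr3:125914633-125915461, minus strand: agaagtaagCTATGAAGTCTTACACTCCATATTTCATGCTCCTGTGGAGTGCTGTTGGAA
Ugt8a, chr3:125914638-125915461, minus strand: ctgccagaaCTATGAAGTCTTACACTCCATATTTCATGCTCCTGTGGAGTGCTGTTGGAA
The first read -3.56, -3.44 and -3.26 on Sham and -3.56, -3.64 and -3.59 on DJB arrays, so the groups overlapped, and all 3 differed by -0.13 to -0.37 without a call. The host probe read -2.72, -1.53 and -3.17 against -6.87, -6.82 and -6.84 and was at least 4.89-fold lower (limma adjusted p = 0.013). The gap to the host had an adjusted p of 0.016 to 0.028, but the host probe passed the filter through its Sham arrays alone, so these p-values rest on DJB values below background and are no support for the gap. Pla2g4e, a phospholipase A2, was alike, with a member difference of 0.07 and a host at least 2.59-fold lower (adjusted p = 0.0066), again with no DJB array of the host well above background.

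In Flrt1, Slc35f1, Olfm1 and Frg2f1 the host probe used was well above background on all 6 arrays. The other mRNA probes of Flrt1 and Slc35f1 were well above background on no DJB array. The member of Flrt1, a leucine-rich repeat membrane protein, differed by -0.02 (SE 0.39) while its host fell by 2.65 (SE 0.16), from 0.77, 0.45 and 0.65 to -1.87, -2.28 and -1.92. The gap was 2.62 (SE 0.37, limma adjusted p = 0.037). Elavl3 encodes an RNA-binding protein of neurons. Its member rose by 0.85 (SE 0.13, adjusted p = 0.034) with the host at -2.09 (SE 0.44, adjusted p = 0.051), and the gap was 2.95 (adjusted p = 0.043). Only 1 DJB array of the Elavl3 host was well above background, so the sizes of its fall and of the gap are not well measured.
Slc35f1, a solute carrier, was the 1 host called lower whose member was called higher. The member at chr10:53108148-53108357 read 0.11, 0.65 and 0.47 on Sham and 1.44, 1.73 and 1.53 on DJB arrays and rose by 1.15 (SE 0.17, adjusted p = 0.031). Its host probe read -2.18, -2.74 and -2.10 against -3.44, -3.37 and -3.20 and fell by 0.99 (SE 0.20, adjusted p = 0.047). The groups stood apart in both probes, in opposite directions, with a gap of 2.15 (SE 0.28, adjusted p = 0.032).
The 2 members below their host lay in Olfm1, a secreted olfactomedin, and in Frg2f1. The Olfm1 member read 1.36, 1.0 and 1.27 on Sham and -0.11, -0.03 and -0.23 on DJB arrays and fell by 1.33 (SE 0.14, adjusted p = 0.017). Its host probe differed by -0.46 (SE 0.12, adjusted p = 0.076), a gap of -0.87 (adjusted p = 0.027). Another Olfm1 mRNA probe, also well above background on all 6 arrays, was called lower, at -0.58 (SE 0.11, limma adjusted p = 0.046). Frg2f1 had a gap of -0.90 (adjusted p = 0.039). With the slide as a block this gap was not called (limma adjusted p = 0.061), while those of Flrt1, Slc35f1 and Olfm1 were. Leaving out each of the 6 arrays in turn, the gaps of Flrt1, Olfm1 and Frg2f1 were called 1 time each and that of Slc35f1 2 times.
The number of such members was 17 with the slide as a block and 4 when the mean of all mRNA probes of the host took the place of the brightest. It was 0 without Sham replicate 1 (320 by limma at an unadjusted p under 0.05), 4 without Sham replicate 2, 32 without Sham replicate 3, 4 without DJB replicate 1, 1 without DJB replicate 2 and 64 without DJB replicate 3.

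Genes known to give rise to circular RNAs, such as Hipk3, Foxo3 and Nfix, were taken as a list of 35. Only 13 of them hosted short-interval members, 33 in all, of which 22 were tested. 1 rose and 1 fell, both in Ttn as given above, and the median was 0.15, beside 0.08 for all tested probes. Of 35 mRNAs of this list none rose and 1 fell (median -0.04), beside 1.45% and 6.02% of all genes. Of 28 tested mRNAs of genes that act in the making, export or decay of circular RNAs, such as Qk, Adar and Rbm20, none was called by limma. Their median was 0.02, and 4 had an unadjusted p under 0.05. Of all 99431 tested probes 15517 were higher and 12540 lower at that unadjusted p. Rbm20, a splicing factor of muscle, differed by -1.41 (SE 0.39, limma adjusted p = 0.086). The 10 tested members in those genes lay between 0.00 and 0.30, again without a call and with 1 at an unadjusted p under 0.05.
Among 28 genes of adipocyte function 4 held 5 tested members. Both Fasn members fell. The others were not called: Scd1, a desaturase of fatty acids, at -2.25 (SE 0.74, adjusted p = 0.12), Irs1, an adaptor of the insulin receptor, at -0.64 (SE 0.22, adjusted p = 0.13), and Acaca, which makes malonyl units for Fasn, at -0.33 (SE 0.17, adjusted p = 0.26). All 5 were negative, and of the 28 mRNAs of the list 10 fell and none rose, beside 6.02% and 1.45% of 17825 genes.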

How the data were processed

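The members and the gene lists were chosen with earlier results of these data known. Per the labels' protocols, total RNA was labelled with cyanine 3 by a whole-transcript kit, 1 colour per array. The authors deposited scanner files made, per the file headers, with Feature Extraction 12.0.3.1. Their processed intensity is linear, background-subtracted and not scaled between arrays. The deposited flags per spot and the deposited mean and background intensity were also used. The authors' deposited value table holds log2 values, which correlated with the matching array at r of at least 0.99986 and have column medians of 4.546 to 4.558. Their scaling is not stated, and the submitters' processing notes name limma with no role given. The headers announce 172336 features and the files hold 155279, so the rest were not analysed here. The design text of the series describes another experiment and was not used.

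The log2 of the processed intensity less the array's 75th percentile was fitted with limma 3.58.1 in R 4.3.3 (lmFit and eBayes, two-sided, no covariate) over all 99431 probes well above background on at least 3 arrays, outlier spots (18 to 25 per array) set to missing. Python 3.11.15 with pandas 2.3.3 and scipy 1.17.1 did the rest. The fit was also tested on simulated data. A host probe is the tested RefSeq mRNA probe of the gene with the highest mean. Sequences of probes come from the deposited files, and genes from the RefSeq tables of GRCm38.p6, matched by accession or symbol. Named were the 10 largest called rises and falls with at least 2 arrays of each group well above background and no overlap, the lowest adjusted p-values, bounds, the 8 hosts with the most members, the largest gaps to the host, the shortest and longest members, groups sharing an edge, and called members of the lists. Other genes were named after their values were seen. Some results that these rules select are not reported here. Same-numbered arrays did not deviate together, so the numbers were not used as pairs.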

Additional observations from a re-analysis of the deposited data

How the results depend on the processing

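The count of 138 called members (99 higher, 39 lower) changed with most settings. It was 413 (357 higher, 56 lower) with normexp background correction, 256 (190 and 66) with the filter at all 6 arrays, 352 (283 and 69) with a trended robust prior, 10 (3 and 7) without a filter, 12 (5 and 7) with the slide as a block, and 73 (47 and 26) at spans under 500 bases. With median scaling 23 were lower. Leaving out 1 array gave 3 to 92 calls, 0 to 39 higher and 3 to 53 lower. Calls past the threshold kept their sign under each of these settings, save under normexp, where 6 falls turned: Ttn to 0.038, and of those given as bounds Daam2 to 0.033, Auts2 to 0.055, Ptpn4 to 0.087, Myh7 to 0.042 and Raver2 to 0.060. Of the 39 falls 20 were not called with normexp, among the named ones Igfbp2, Ptprk, 9330159F19Rik, 1 of Syp and 1 of Kcnip3. The replicate block left 0 calls (0 higher, 0 lower), with 671 at an unadjusted p under 0.05, and the labels do not say that the numbers pair samples.

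The 28 members that moved apart from their host (26 above, 2 below) became 370 (342 and 28) with normexp, 53 (49 and 4) with quantile normalization, 56 (52 and 4) with the authors' deposited table, 49 (46 above) with the filter at all 6 arrays, 17 (16 and 1) with the slide block, 4 (3 and 1) with the mean of the host's probes and 8 (7 and 1) with hosts of 1 probe. The replicate block left 0 (0 and 0), with 383 at an unadjusted p under 0.05. Leaving out 1 array gave 0 to 64, 0 to 57 above and 0 to 7 below. The median difference of the members was 0.29 with median scaling, which raised that of all probes by the same amount, 0.21 with quantile normalization, and 0.17 to 0.21 without 1 array. It exceeded that of all probes by 0.11 as reported and by 0.04 with normexp. The cause of these changes was not tested. Dim signal limits what can be said of members near background.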
